A study of Homo sapiens with 8 samples.

Results

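The 55 genes described here encode the machinery of mitosis: the kinases that start it, the kinetochore that ties chromosomes to the spindle, the motors and assembly factors of the spindle itself, the checkpoint that watches attachment, and the proteins that split the chromosomes and then the cell. They were chosen by name out of the 20531 genes of the tables, and all 55 were found by symbol. RNA with a poly(A) tail had been sequenced from SKBR-3 and BT474m1, both HER2+ breast carcinoma cell lines, in which the receptor tyrosine kinase HER2 (ERBB2) drives growth, grown in RPMI medium with fetal bovine serum. Each line received DMSO, the solvent control, 300 nM lapatinib, 300 nM JQ1, or 300 nM of each drug together, for 48 h per the labels. Lapatinib inhibits the kinases EGFR and HER2, and JQ1 blocks the bromodomains of the BET proteins, which read acetylated histones and support transcription. The study asked what cells do in response to HER2 inhibition and whether BET inhibition alters that response. Each of the 8 groups held 1 library from 1 culture, so no replicate spread could be measured and no p-value is given. The intervals below are 95% exact intervals for the reads of 2 libraries and, for the same reason, cover counting error only. Reads copied by PCR carry no molecular identifier and do not each stand for a molecule of their own, so the intervals may be too narrow even for that error.

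Entry into mitosis depends on CDK1 bound to cyclin A or cyclin B, which the CDC25 phosphatases release from inhibitory phosphates and which the Polo and Aurora kinases help to switch on. Chromosomes then attach through the NDC80 complex to spindle microtubules, and until all are attached the spindle checkpoint holds back the anaphase-promoting complex (APC/C) and its activator CDC20, which otherwise destroys securin and cyclin B so that separase can cut cohesin. Most of these genes are transcribed mainly in G2 and mitosis, under the MuvB-B-MYB and FOXM1 activators and the DREAM repressor complex, and cells outside the cycle hold little of their RNA. In a bulk culture, fewer cells in G2 and mitosis and less of this RNA per cell cannot be told apart.

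Because the members are known for a shared kind of promoter, 6 of their promoters are shown before the values. RefSeq promoter windows of GRCh38.p14, running from 250 bases before to 50 bases after each gene's start, matched 48 of the 55 genes. Here 150 bases before the start are printed 5′ to 3′ on the gene's strand. Capitals mark the cell cycle genes homology region (CHR, searched as TTTGAA or TTCGAA) and the CCAAT box, each searched on both strands, so that a box on the other strand appears as ATTGG. PLK1, CCNB2, CDC20 and PRC1 are shown as members that hold both elements, KIF20A as one with CCAAT boxes alone, and CDC25B, which was higher and not lower with JQ1 in SKBR-3, as one with neither. CDC25C, CENPE, CENPI and KIF2C held neither as well, and CDC25C was lower with JQ1 in SKBR-3.
PLK1, chr16:23678739-23678888, plus strand: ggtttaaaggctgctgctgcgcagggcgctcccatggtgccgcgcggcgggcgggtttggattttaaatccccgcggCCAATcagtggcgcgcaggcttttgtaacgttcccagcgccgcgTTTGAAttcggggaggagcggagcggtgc
CCNB2, chr15:59104996-59105145, plus strand: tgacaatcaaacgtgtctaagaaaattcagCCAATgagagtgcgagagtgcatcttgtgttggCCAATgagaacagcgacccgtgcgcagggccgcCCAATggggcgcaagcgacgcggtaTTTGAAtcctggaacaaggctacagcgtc
CDC20, chr1:43358831-43358980, plus strand: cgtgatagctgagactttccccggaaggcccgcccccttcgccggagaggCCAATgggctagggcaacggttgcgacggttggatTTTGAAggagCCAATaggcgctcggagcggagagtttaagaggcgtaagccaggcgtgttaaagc
PRC1, chr15:90994536-90994685, minus strand: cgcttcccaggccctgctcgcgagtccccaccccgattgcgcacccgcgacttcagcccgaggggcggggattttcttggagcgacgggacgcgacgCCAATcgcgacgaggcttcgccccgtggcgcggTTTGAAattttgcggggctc
KIF20A, chr5:138178962-138179111, plus strand: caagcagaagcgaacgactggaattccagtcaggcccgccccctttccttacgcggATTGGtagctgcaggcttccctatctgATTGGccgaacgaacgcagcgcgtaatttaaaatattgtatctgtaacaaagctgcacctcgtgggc
CDC25B, chr20:3786801-3786950, plus strand: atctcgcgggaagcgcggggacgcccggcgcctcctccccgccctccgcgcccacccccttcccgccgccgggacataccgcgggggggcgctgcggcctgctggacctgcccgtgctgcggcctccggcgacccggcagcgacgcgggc

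The CHR letters stood in 32 of the 48 member windows (66.7%), against 16.6% of all 27305 promoter windows of the same length. The CCAAT letters stood in 34 member windows (70.8%) against 35.7% of all windows, and both elements together in 23 (47.9%) against 6.58%. The E2F letters TTGGCGC or TTCGCGC, a site type of DNA replication genes, stood in 8 (16.7%) against 5.18%. In PLK1 and CCNB2 the CHR began 29 bases before the start, and CCNB2 carried 4 CCAAT boxes in its window, of which those at 120, 87 and 54 bases before the start lie in the printed bases. The median lapatinib change of members with and without the CHR letters was -3.52 and -3.69, as log2 differences, in SKBR-3 and -4.58 and -4.62 in BT474m1. With and without the CCAAT letters it was -3.55 and -3.63 in SKBR-3 and -4.62 and -4.56 in BT474m1. For the E2F letters, on 8 and 40 genes, it was -3.02 and -3.64 in SKBR-3 and -3.63 and -4.72 in BT474m1. A match is a run of letters and not a measured binding site.

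The deposited values are read counts per gene, estimated with RSEM and scaled per library to an upper quartile of 1000 among genes above 0. A change is the difference of log2(value + 1) between 2 libraries, and a gene was called at a change of 2-fold or more. The libraries held 21420113 to 34112379 reads on genes, and 1 read was worth 0.471 to 0.766 units, so that the floor of 3 reads lay between 1.41 and 2.30 units. Of all genes, 14429 reached a value of 10 in at least 1 library and were kept. All 55 members were among them, the lowest maximum being 136 for SPC24. The 7 luminal epithelial markers were above 0 in all 8 libraries, although CDH1 (E-cadherin) was at 4.29 in SKBR-3 with DMSO against 19414 in BT474m1. The estrogen and progesterone receptor genes ESR1 and PGR summed to between 2.58 and 19.9 in SKBR-3 and between 441 and 14293 in BT474m1. Between 2 and 5 of the 6 fibroblast markers were at 0 in each library, and COL1A1 made up most of their sum, which ran from 24.1 to 1263. The 5 leukocyte markers summed to between 24.5 and 418 and the 4 endothelial markers to between 7.58 and 191. The part of other cells in the results was not tested.

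With DMSO, the 55 genes took 0.877% of the reads on genes in SKBR-3 (0.873 to 0.881) and 0.595% in BT474m1 (0.592 to 0.597). With lapatinib their share was 0.100% (0.0987 to 0.101) in SKBR-3 and 0.0532% (0.0523 to 0.0541) in BT474m1, which is 8.77-fold and 11.2-fold lower. With JQ1 alone it was 0.596% (0.593 to 0.599) and 0.317% (0.315 to 0.319), or 1.47-fold and 1.87-fold lower. With both drugs it was 0.0665% (0.0655 to 0.0676) in SKBR-3 and 0.0509% (0.0500 to 0.0517) in BT474m1. Lapatinib thus went with the large fall in both lines, and JQ1 alone with a much smaller one.

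**Figure D1:**
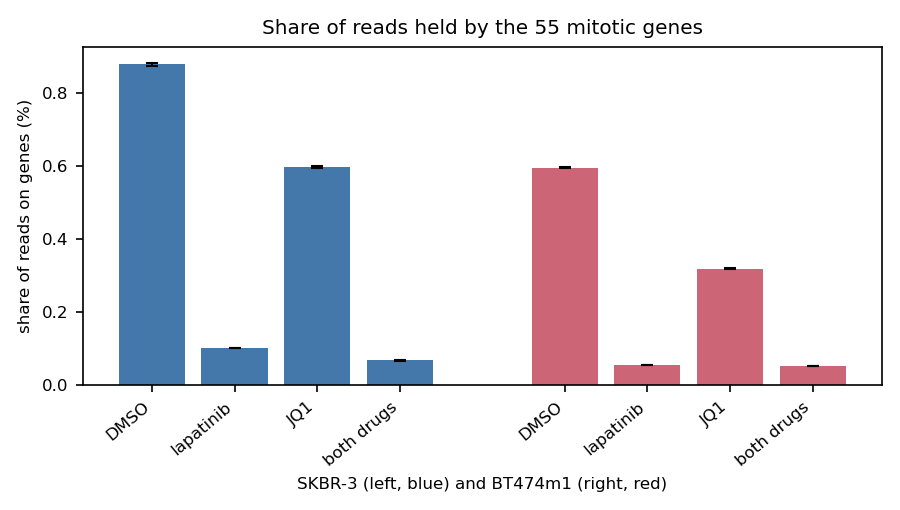
Share of the reads on genes held by the 55 mitotic genes, in percent on an axis from 0, for the 8 libraries (SKBR-3 in blue, BT474m1 in red). Bars are the share in 1 library and error bars the 95% exact interval for counting error; the 4 libraries with lapatinib sit between 0.0509% and 0.100%, and the 4 without it between 0.317% and 0.877%.

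A few genes carried much of that share. TOP2A, the topoisomerase that untangles chromosomes, held 18.0% of the member reads in SKBR-3 with DMSO and 6.25% in BT474m1, and CDC25B held 57.0% of them in SKBR-3 with both drugs. Without CDC25B, which was singled out after its values were seen, the share in SKBR-3 was 0.0880% with lapatinib and 0.0286% with both drugs, a 3.08-fold difference against 1.5-fold with it. In BT474m1 the same ratio was 1.10-fold without CDC25B and 1.05-fold with it. The median member, which no single gene carries, stood in SKBR-3 at 1562 under DMSO, 114 under lapatinib, 999 under JQ1 and 19.9 under the combination. In BT474m1 it stood at 1215, 49.4, 629 and 49.0 in the same order.

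**Figure D2:**
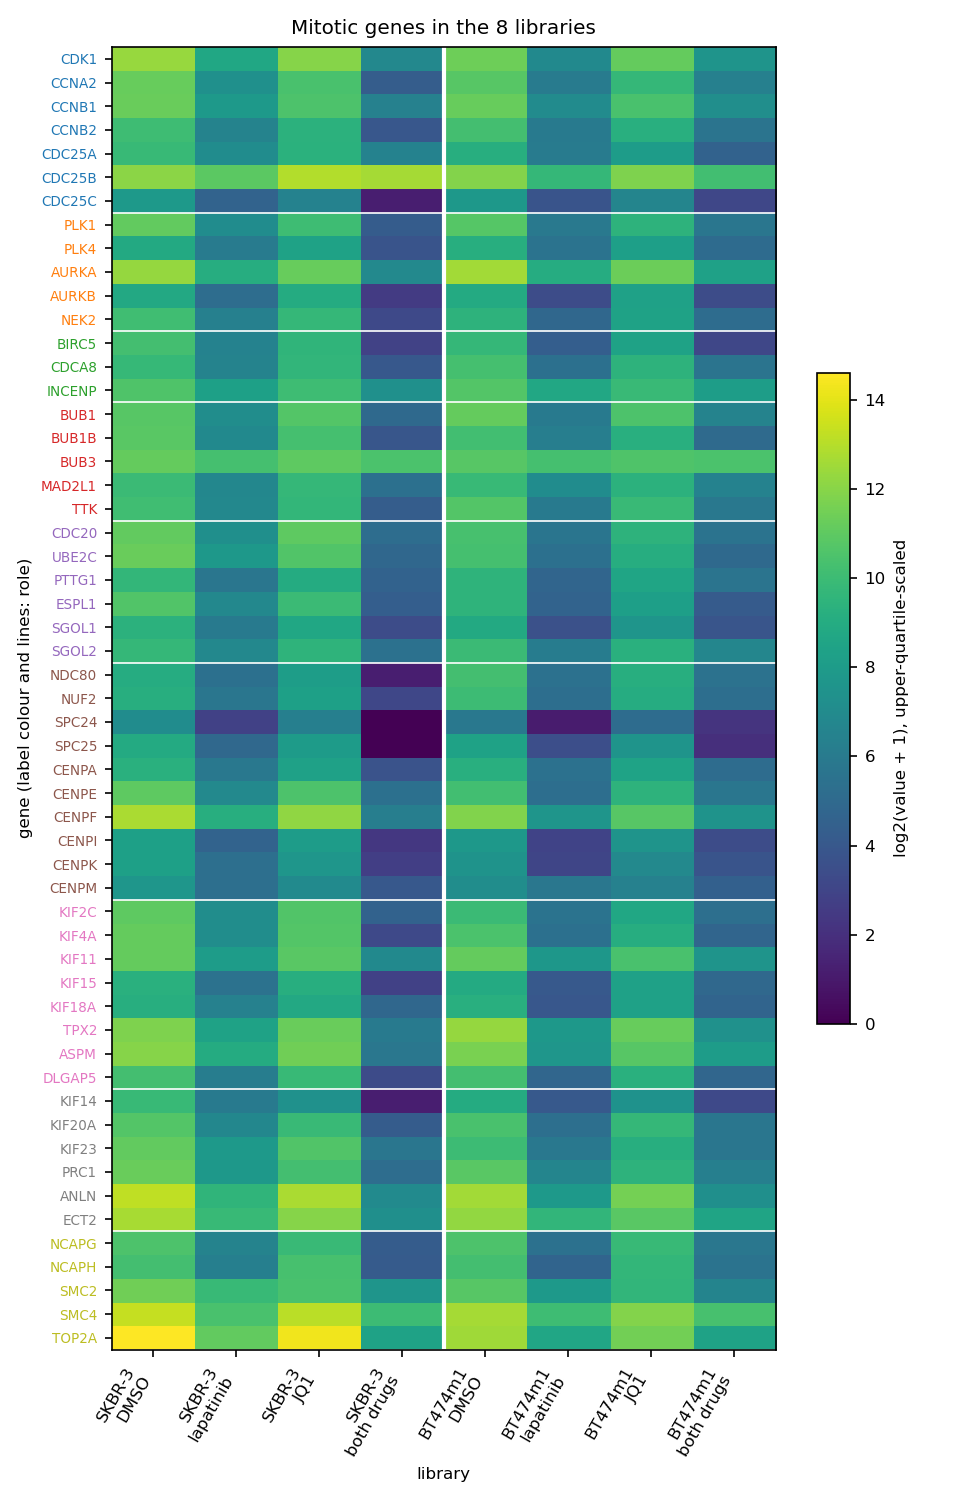
Values of the 55 genes in the 8 libraries, as log2(value + 1) of the upper-quartile-scaled values, with genes as rows grouped by role (label colours and white lines) and libraries as columns. The columns with lapatinib are darker than those without it in both lines, and the SKBR-3 column with both drugs is the darkest, with SPC24 and SPC25 at 0. CDC25B, BUB3 and SMC4 keep a light row throughout.

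Lapatinib against DMSO asked how the mitotic genes stood when HER2 signalling was blocked. In SKBR-3, 54 of the 55 genes were at least 2-fold lower and 0 higher, where 9.44% of all 14429 genes were lower and 11.1% higher. In BT474m1 it was again 54 of 55 lower and 0 higher, against 8.06% and 14% of all genes. The member median was -3.51 on the log2 scale in SKBR-3 and -4.54 in BT474m1, beside all-gene medians of 0.05 and 0.07. The exception in both lines was BUB3, and its interval too lay below 0.

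Among CDK1, its cyclins and the CDC25 phosphatases, all 7 were at least 2-fold lower with lapatinib in each line, with medians of -3.42 in SKBR-3 and -4.16 in BT474m1. CDK1 stood in SKBR-3 at 5178 under DMSO, 407 under lapatinib, 4034 under JQ1 and 110.1 under the combination, and in BT474m1 at 2644, 120.5, 2238 and 189.5. CDK1, the kinase that triggers mitosis, changed by -3.66 (-3.80 to -3.54) in SKBR-3 and -4.44 (-4.67 to -4.25) in BT474m1. The cyclins moved with it. CCNA2 stood in SKBR-3 at 2355 under DMSO, 159 under lapatinib, 1388 under JQ1 and 19.0 under the combination, and in BT474m1 at 1789, 66.3, 841 and 79.8. For this cyclin of S phase and early mitosis the changes were -3.88 (-4.10 to -3.69) and -4.73 (-5.04 to -4.48), the largest of the group in both lines. CCNB1 and CCNB2, the mitotic B-type cyclins, changed by -3.42 and -3.51 in SKBR-3 and by -4.16 and -4.28 in BT474m1.

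The 3 CDC25 phosphatases differed from each other. CDC25B stood in SKBR-3 at 4312 under DMSO, 1974 under lapatinib, 7729 under JQ1 and 6369.7 under the combination, and in BT474m1 at 3739, 861, 3494 and 1169. CDC25B, the isoform that helps to start CDK1 activity at the centrosome, had the smallest lapatinib change of the group, -1.13 (-1.19 to -1.06) in SKBR-3 and -2.12 (-2.20 to -2.04) in BT474m1, and was the one member that lay above its DMSO value in a library with both drugs. CDC25A, which also acts at the start of S phase, changed by -2.72 and -3.09. CDC25C stood in SKBR-3 at 233 under DMSO, 23.7 under lapatinib, 87.0 under JQ1 and 1.38 under the combination, and in BT474m1 at 219.7, 12.7, 99.5 and 7.58. CDC25C, which acts at mitotic entry, had 2 reads in SKBR-3 with both drugs, and was there 169-fold lower (95% interval 46.4 to 1402) than with DMSO.

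All 5 of the Polo, Aurora and NEK kinases were at least 2-fold lower with lapatinib in both lines, with medians of -3.59 and -4.54. PLK1 stood in SKBR-3 at 2170.4 under DMSO, 136 under lapatinib, 1065 under JQ1 and 17.9 under the combination, and in BT474m1 at 1747, 59.6, 698 and 53.1. PLK1, which matures centrosomes and acts at kinetochores, showed the largest change of the group in SKBR-3, -3.98 (-4.22 to -3.77), and -4.85 (-5.18 to -4.58) in BT474m1. AURKB stood in SKBR-3 at 453 under DMSO, 36.8 under lapatinib, 505 under JQ1 and 4.82 under the combination, and in BT474m1 at 490.3, 9.64, 325 and 9.33. AURKB, the kinase that corrects faulty kinetochore attachments, changed by -3.59 (-4.08 to -3.20) in SKBR-3 and -5.53 (-6.48 to -4.96) in BT474m1, the largest of the group there, from 16 reads with lapatinib. The smallest changes were those of PLK4, the kinase of centriole duplication, in SKBR-3 and of AURKA, the spindle pole kinase, in BT474m1. PLK4 stood in SKBR-3 at 469 under DMSO, 65.8 under lapatinib, 336 under JQ1 and 13.1 under the combination, and in BT474m1 at 559.6, 45.8, 304 and 33.2. AURKA stood in SKBR-3 at 5110.2 under DMSO, 545 under lapatinib, 2419 under JQ1 and 117 under the combination, and in BT474m1 at 6030.2, 517, 2598 and 325. NEK2, which helps to part the centrosomes, changed by -3.77 and -4.54.

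AURKB works in the chromosomal passenger complex with survivin (BIRC5), borealin (CDCA8) and INCENP, and all 3 partners were at least 2-fold lower with lapatinib in both lines. BIRC5 stood in SKBR-3 at 1211 under DMSO, 86.9 under lapatinib, 761 under JQ1 and 6.25 under the combination, and in BT474m1 at 851, 19.5, 341 and 7.59. INCENP stood in SKBR-3 at 1562 under DMSO, 318 under lapatinib, 1077 under JQ1 and 158 under the combination, and in BT474m1 at 1686, 436, 959 and 282. The scaffold INCENP changed least, by -2.29 (-2.45 to -2.15) and -1.95 (-2.07 to -1.84), and BIRC5 most, by -3.79 (-4.09 to -3.53) and -5.38 (-6.02 to -4.96). CDCA8 lay between them at -3.23 and -4.86. The changes of the 4 subunits of this complex were unequal in BT474m1, where they ran from -5.53 to -1.95.

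Of the 5 spindle checkpoint genes, 4 were at least 2-fold lower with lapatinib in each line, with medians of -3.30 in SKBR-3 and -3.96 in BT474m1. BUB1 stood in SKBR-3 at 1817 under DMSO, 140.1 under lapatinib, 1662 under JQ1 and 30.3 under the combination, and in BT474m1 at 2306, 62.7, 1489 and 93.3. BUB1B stood in SKBR-3 at 1899.5 under DMSO, 123 under lapatinib, 1252 under JQ1 and 13.8 under the combination, and in BT474m1 at 1184, 75.2, 587 and 31.7. These encode the kinase BUB1 and its relative BUBR1, and their changes were -3.69 and -3.93 in SKBR-3 and -5.18 and -3.96 in BT474m1. BUB3 stood in SKBR-3 at 2267 under DMSO, 1283 under lapatinib, 2026 under JQ1 and 1414 under the combination, and in BT474m1 at 1766, 1271, 1544 and 1405. BUB3, the adaptor that holds both at the kinetochore, was the member that varied least over the 8 libraries, with lapatinib changes of -0.82 (-0.91 to -0.74) and -0.47 (-0.55 to -0.40). MAD2L1, the inhibitor of CDC20, changed by -3.19 and -2.75, and TTK, the kinase at the head of the checkpoint, by -3.30 and -4.68.

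The 6 genes of anaphase onset were all at least 2-fold lower with lapatinib in both lines, with medians of -3.62 and -4.82. PTTG1 stood in SKBR-3 at 808 under DMSO, 52.1 under lapatinib, 501 under JQ1 and 22.7 under the combination, and in BT474m1 at 727, 25.9, 387 and 49.0. PTTG1, securin, the inhibitor of separase, changed by -3.93 (-4.33 to -3.60) and -4.76 (-5.28 to -4.37); its near copies PTTG2 and PTTG3P together held at most 0.132 of its value in any library. SGOL1 stood in SKBR-3 at 674 under DMSO, 63.6 under lapatinib, 411 under JQ1 and 9.63 under the combination, and in BT474m1 at 462, 11.4, 195 and 13.4. SGOL2 stood in SKBR-3 at 855 under DMSO, 110.3 under lapatinib, 735 under JQ1 and 42.0 under the combination, and in BT474m1 at 988, 68.7, 629 and 103. The shugoshins SGOL1 and SGOL2 (now SGO1 and SGO2), which guard cohesin at centromeres, marked the largest change of the group in BT474m1, -5.22 (-6.07 to -4.68), and the smallest in both lines, -2.94 (-3.22 to -2.71) and -3.83 (-4.13 to -3.57). CDC20, the APC/C activator, changed by -3.83 and -4.72, UBE2C, its ubiquitin-conjugating enzyme, by -3.47 and -4.94, and ESPL1, separase, by -3.77 and -4.87.

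All 10 kinetochore and centromere genes were at least 2-fold lower with lapatinib in both lines, with medians of -3.62 and -4.72. SPC24 stood in SKBR-3 at 136 under DMSO, 6.13 under lapatinib, 79.3 under JQ1 and 0 under the combination, and in BT474m1 at 56.6, 1.2, 34.3 and 3.5. SPC25 stood in SKBR-3 at 495 under DMSO, 29.9 under lapatinib, 255 under JQ1 and 0 under the combination, and in BT474m1 at 347, 10.2, 186 and 2.92. NDC80 stood in SKBR-3 at 531 under DMSO, 41.3 under lapatinib, 280.3 under JQ1 and 1.38 under the combination, and in BT474m1 at 1197, 42.8, 568 and 43.7. These are subunits of the NDC80 complex, the main microtubule anchor of the kinetochore, together with NUF2, and few reads of any of them were left in SKBR-3 with both drugs: SPC24 and SPC25 had 0 reads there, NDC80 had 2 and NUF2 had 11. Against DMSO, SPC24 was at least 65.9-fold lower and SPC25 at least 239.7-fold lower, with the floor of 3 reads in place of 0, and NDC80 was 386-fold lower (95% interval 106 to 3194). In BT474m1 the same 4 genes had 6, 5, 75 and 66 reads with both drugs.

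SPC24 showed the largest lapatinib change of all 55 genes in SKBR-3, -4.27 (-5.71 to -3.46) on 8 remaining reads, and in BT474m1 only 2 of its reads were left with lapatinib, 47.0-fold lower (95% interval 12.7 to 392) than with DMSO. CENPM stood in SKBR-3 at 201 under DMSO, 39.8 under lapatinib, 125 under JQ1 and 15.1 under the combination, and in BT474m1 at 139.6, 53.6, 84.1 and 21.0. CENPM, a subunit of the constitutive centromere network, changed least of the group, by -2.31 (-2.79 to -1.91) and -1.36 (-1.74 to -1.03). Its partners CENPI and CENPK changed by -3.61 and -2.99 in SKBR-3 and by -4.86 and -4.49 in BT474m1. CENPA, the histone H3 variant that marks the centromere, changed by -3.42 and -3.72, the kinetochore motor CENPE by -4.08 and -4.88, and CENPF, a large protein of the outer kinetochore, by -3.62 and -4.23.

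The 8 spindle motors and assembly factors were all at least 2-fold lower with lapatinib in both lines, with medians of -3.57 and -4.69. DLGAP5 stood in SKBR-3 at 1224 under DMSO, 72.0 under lapatinib, 933 under JQ1 and 8.94 under the combination, and in BT474m1 at 1189, 27.7, 625 and 26.8. DLGAP5 (HURP), which stabilises the fibres to the kinetochores, led the group with -4.07 (-4.40 to -3.79) and -5.37 (-5.88 to -5.00). KIF18A stood in SKBR-3 at 578 under DMSO, 84.2 under lapatinib, 446 under JQ1 and 28.9 under the combination, and in BT474m1 at 592, 14.5, 331 and 25.1. KIF11 stood in SKBR-3 at 2259 under DMSO, 268 under lapatinib, 1845 under JQ1 and 120.4 under the combination, and in BT474m1 at 2291, 215, 1338 and 187. KIF18A, the motor that dampens chromosome movements, was the member with the smallest change of the group in SKBR-3, -2.77 (-3.08 to -2.49), and next to DLGAP5 the largest in BT474m1, -5.26 (-6.0 to -4.77). KIF11 (Eg5), which pushes the spindle poles apart, changed least in BT474m1, by -3.41 (-3.57 to -3.26).

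KIF15 stood in SKBR-3 at 611 under DMSO, 43.6 under lapatinib, 572 under JQ1 and 6.19 under the combination, and in BT474m1 at 480.4, 15.7, 330.4 and 29.7. ASPM stood in SKBR-3 at 3913 under DMSO, 511 under lapatinib, 2739 under JQ1 and 54.3 under the combination, and in BT474m1 at 3275, 207, 1799 and 268. KIF15 backs up KIF11 in keeping the spindle bipolar, and ASPM focuses its poles; their lapatinib changes were -3.78 and -2.94 in SKBR-3 and -4.85 and -3.98 in BT474m1. The microtubule depolymerase KIF2C, the chromosome-bound motor KIF4A and the AURKA activator TPX2 changed by -3.83, -4.00 and -3.36 in SKBR-3 and by -4.38, -5.06 and -4.53 in BT474m1.

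All 6 genes of the central spindle and cytokinesis were at least 2-fold lower with lapatinib in both lines, with medians of -3.55 and -4.50. KIF20A stood in SKBR-3 at 1681 under DMSO, 109 under lapatinib, 936 under JQ1 and 17.9 under the combination, and in BT474m1 at 1354, 39.8, 843 and 51.9. KIF20A, the motor that carries the passenger complex to the midzone, changed most, by -3.93 (-4.19 to -3.70) and -5.05 (-5.46 to -4.74). ECT2 stood in SKBR-3 at 6523 under DMSO, 930.3 under lapatinib, 3977 under JQ1 and 153 under the combination, and in BT474m1 at 4856, 769, 1895 and 372. ECT2, the exchange factor that starts the cleavage furrow, changed least, by -2.81 (-2.90 to -2.72) and -2.66 (-2.74 to -2.57). The midzone motor KIF23, the bundling protein PRC1 and the furrow protein anillin (ANLN) changed by -3.19, -3.44 and -3.66 in SKBR-3 and by -4.17, -4.26 and -4.73 in BT474m1. KIF14 stood in SKBR-3 at 932 under DMSO, 63.6 under lapatinib, 168 under JQ1 and 1.38 under the combination, and in BT474m1 at 497, 15.7, 172 and 8.16. KIF14, a motor of late cytokinesis, had 2 reads in SKBR-3 with both drugs, 677-fold lower (95% interval 187 to 5599.8) than with DMSO.

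The 5 genes of condensin and topoisomerase II, which compact and untangle the chromosomes, were also all at least 2-fold lower with lapatinib in both lines, with medians of -3.52 and -3.88. NCAPH stood in SKBR-3 at 1229.8 under DMSO, 76.6 under lapatinib, 1300.3 under JQ1 and 17.2 under the combination, and in BT474m1 at 1215, 24.7, 807 and 45.5. NCAPG stood in SKBR-3 at 1463 under DMSO, 90.7 under lapatinib, 964 under JQ1 and 18.3 under the combination, and in BT474m1 at 1476, 43.1, 911 and 54.2. These subunits belong to condensin I alone, and changed by -3.99 and -4.00 in SKBR-3 and by -5.56 and -5.07 in BT474m1, where NCAPH showed the largest change of all 55. SMC2 stood in SKBR-3 at 2737 under DMSO, 913 under lapatinib, 1389 under JQ1 and 193 under the combination, and in BT474m1 at 1820.4, 240.4, 782 and 96.8. SMC4 stood in SKBR-3 at 10115 under DMSO, 1388 under lapatinib, 8772 under JQ1 and 1032 under the combination, and in BT474m1 at 6332, 1061, 3846 and 1293. SMC2 and SMC4, the core that condensin I and II share, changed less, by -1.58 and -2.86 in SKBR-3 and by -2.92 and -2.58 in BT474m1. TOP2A changed by -3.52 (-3.58 to -3.47) and -3.88 (-4.00 to -3.77).

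The fall with lapatinib was larger in BT474m1 than in SKBR-3 for most members. The difference of the changes (BT474m1 minus SKBR-3) had a median of -0.88, and 24 of 55 genes differed by at least 2-fold in that direction and 0 in the other, where 9.45% and 12.5% of all genes did. Scaled to housekeeping genes, the median was -0.42, with 9 genes lower (5.09% of all genes) and 1 higher (22.7% of all genes), and the median of all genes moved from 0.01 to 0.47. By counting intervals, 45 differences lay below 0 (28.9% of all genes), 6 above it (28.1% of all genes) and 4 spanned it. KIF18A differed most, by -2.50 (-3.15 to -1.85), and AURKB by -1.94 (-2.77 to -1.11). On the other side stood CENPM, 0.94 (0.40 to 1.49), MAD2L1, 0.43 (0.12 to 0.75), and BUB3, 0.35 (0.23 to 0.46). With 1 library per group, these intervals hold for the libraries and not for the lines. All drug comparisons of a line against DMSO shared the same DMSO library.

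**Figure D3:**
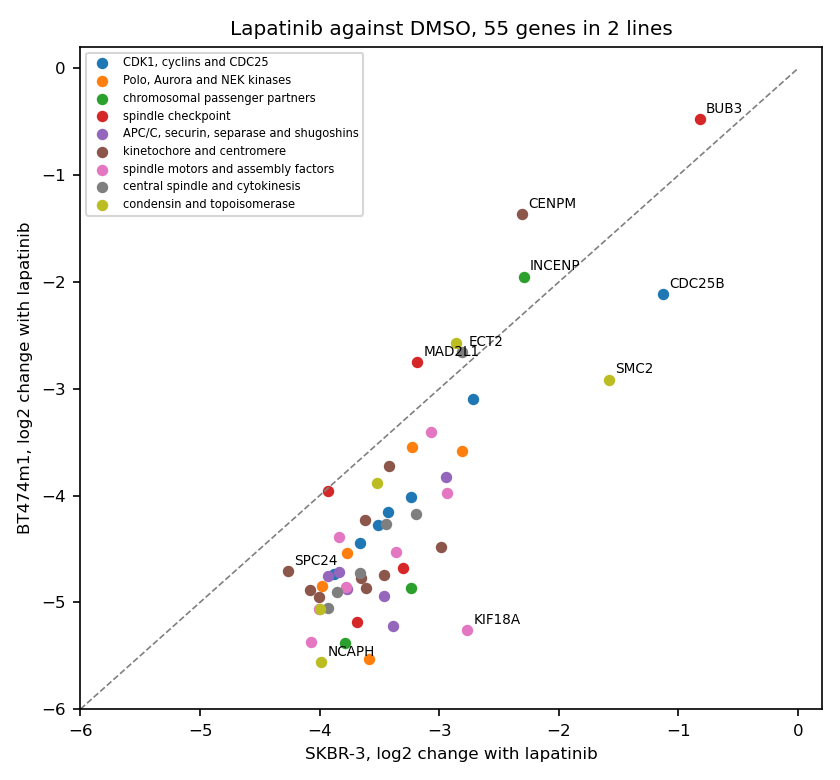
Change with lapatinib against DMSO of the 55 genes, log2 scale, in SKBR-3 (x axis) and BT474m1 (y axis), each point 1 gene coloured by role and the dashed line marking equal change. Most points lie under the line, BUB3 sits nearest to 0 at -0.82 and -0.47, and KIF18A, SMC2 and CDC25B stand away from the cloud.

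JQ1 alone went with modest decreases. In SKBR-3, 5 of 55 genes were at least 2-fold lower (11.8% of all genes) and 0 higher (3.75% of all genes), with a member median of -0.54 beside an all-gene median of -0.08. In BT474m1, 23 of 55 were lower (11.8% of all genes) and 0 higher (4.81% of all genes), with medians of -0.89 and -0.06. The counts in this comparison depended on the scaling: scaled to housekeeping genes, they were 2 lower (9.78% of all genes) and 1 higher (4.93% of all genes) in SKBR-3 and 12 lower (9.56% of all genes) in BT474m1, and with equal totals 10 were lower in SKBR-3 (14.1% of all genes). Read against all genes, the share of lower members in SKBR-3 thus had no fixed order. The counting interval lay below 0 for 51 genes in SKBR-3 (36% of all genes) and for all 55 in BT474m1 (40.2% of all genes).

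KIF14 changed most with JQ1 in both lines, by -2.46 (-2.67 to -2.28) in SKBR-3 and -1.53 (-1.71 to -1.36) in BT474m1. The other 4 genes past 2-fold in SKBR-3 were CDC25C at -1.41 (-1.72 to -1.13), AURKA at -1.08 (-1.14 to -1.02), PLK1 at -1.03 (-1.11 to -0.94) and PRC1 at -1.01 (-1.09 to -0.93), and all of them were past it in BT474m1 as well, at -1.13, -1.21, -1.32 and -1.44. Cytokinesis genes had the lowest median of the 9 roles in each line, -0.78 in SKBR-3 and -1.19 in BT474m1, and the spindle checkpoint the one nearest to 0, -0.24 and -0.63. Of the checkpoint values in SKBR-3, BUB1 (-0.13) and BUB3 (-0.16) became 0.04 and 0.00 when scaled to housekeeping genes.

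CDC25B was higher with JQ1 in SKBR-3, going from 4312 to 7729, a change of 0.84 (0.80 to 0.89), while in BT474m1 it was -0.10 (-0.14 to -0.05) and became 0.07 under housekeeping scaling. AURKB changed by 0.15 (0.00 to 0.31) in SKBR-3, with the lower bound of its interval at 0.00, became 0.01 (-0.14 to 0.16) there with equal totals, and changed by -0.59 (-0.74 to -0.45) in BT474m1. NCAPH, at 0.08 (-0.01 to 0.17), was the remaining gene above 0 in SKBR-3, and became -0.07 when the libraries were scaled to equal totals. The JQ1 change was lower in BT474m1 than in SKBR-3 for most genes, with a median difference of -0.40, but 0 of 55 differed by 2-fold in either direction (7.11% and 8.84% of all genes did). With equal totals, 1 was higher by that much (10.2% of all genes).

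Adding JQ1 to lapatinib separated the lines. In SKBR-3, 51 of the 55 genes were lower by at least 2-fold under the combination than under lapatinib alone (16.2% of all genes) and 1, CDC25B, was higher (3.22% of all genes), with a member median of -2.55 beside -0.11 over all genes. With a pseudocount of 10, which weighs the few reads left there less, the member median was -1.91. In BT474m1, 7 of 55 were lower (12.5% of all genes) and 1 higher (5.2% of all genes), with a median of -0.10 beside -0.02. By counting intervals, 53 genes were lower (39.9% of all genes) and 2 higher (24% of all genes) in SKBR-3, whereas in BT474m1 14 were lower (37.7% of all genes), 11 higher (33.3% of all genes) and 30 spanned 0. These comparisons share the lapatinib library of each line with the comparison of lapatinib against DMSO.

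The further fall in SKBR-3 reached every role. The median change on adding JQ1 was -2.70 for the Polo, Aurora and NEK kinases, -2.62 for the kinetochore and -2.61 for the spindle motors. It was -2.59 for cytokinesis, -2.51 for the passenger partners, -2.26 for anaphase onset, -2.23 for condensin and topoisomerase and -2.17 for the checkpoint. For the 7 genes of CDK1, its cyclins and the CDC25 phosphatases it was -1.88. In BT474m1 the same medians ran from -0.63 for the passenger partners to 0.28 for condensin and topoisomerase. KIF4A, with 188 reads with lapatinib and 12 with both drugs, changed by -3.97 (-5.10 to -3.29) in SKBR-3, and TOP2A, with 2839 and 504 reads, by -2.65 (-2.79 to -2.51). Their changes in BT474m1 were -0.62 (-1.22 to -0.08) and -0.26 (-0.42 to -0.10). The exceptions in SKBR-3 short of 2-fold were CDC25A at -0.62 (-0.97 to -0.29), SMC4 at -0.43 (-0.53 to -0.33) and BUB3 at 0.14 (0.05 to 0.23).

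In BT474m1 the genes at least 2-fold lower on adding JQ1 were SPC25 at -1.52 (-3.61 to -0.31), CDC25A at -1.45 (-2.05 to -0.96), CENPM at -1.31 (-1.95 to -0.78), SMC2 at -1.30 (-1.58 to -1.05), BIRC5 at -1.25 (-2.40 to -0.38), BUB1B at -1.22 (-1.75 to -0.79) and ECT2 at -1.05 (-1.19 to -0.91). The gene past 2-fold in the other direction was SPC24, with 2 reads with lapatinib and 6 with both drugs, and its interval spanned 0 (1.03, interval -0.95 to 4.88). CDK1 stood higher under the combination than under lapatinib alone, 0.65 (0.39 to 0.91), as did PTTG1, 0.89 (0.37 to 1.48), and CDC25B, 0.44 (0.34 to 0.54), and all 3 remained below their DMSO values. On adding JQ1 to lapatinib, 9 of 55 members had intervals clear of 0 on opposite sides in the lines (11.3% of all genes), against 2 with JQ1 alone (8.91% of all genes) and 1 with both drugs against DMSO (14% of all genes).

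Between the lines, the effect of adding JQ1 to lapatinib differed by at least 2-fold for most members. It was higher in BT474m1 for 46 of 55 (13% of all genes) and lower for 1, CDC25B (7.44% of all genes), with a median difference of 2.35. Of the 27 members with more reads than the median member, by the mean over all 8 libraries, 21 were higher by that much, and of the 28 others 25, with medians of 2.03 and 2.65; this split was made after the values were seen. TOP2A, the member with the most reads, differed by 2.38 (2.17 to 2.59) and SMC4, the next, by 0.71 (0.58 to 0.85). ANLN differed by 2.0 (1.67 to 2.32), ECT2 by 1.55 (1.31 to 1.80) and AURKA by 1.54 (1.26 to 1.83). Among those short of 2-fold were also KIF11 at 0.94 (0.60 to 1.28), SMC2 at 0.93 (0.61 to 1.25), INCENP at 0.37 (0.09 to 0.66) and BUB3 at 0.00 (-0.12 to 0.13). The difference for CDC25B was -1.25 (-1.37 to -1.13), and that for CENPM, 0.03 (-0.88 to 0.94), spanned 0. Of the intervals, 49 lay above 0 (31.9% of all genes), 2 below (20.5% of all genes) and 2 spanned it, and SPC24 and SPC25 had none because of their 0 reads.

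The JQ1 change was also taken with and without lapatinib inside a line, which uses the same libraries with lapatinib and is no independent comparison. In SKBR-3, 46 of 55 genes fell at least 2-fold further with JQ1 in the presence of lapatinib than in its absence (7.58% of all genes) and 0 less (3.9% of all genes), with a median difference of -1.89, or -1.28 with a pseudocount of 10. In BT474m1 the difference ran the other way, with 22 genes at least 2-fold higher (4.72% of all genes), 0 lower (4.73% of all genes) and a median of 0.82. CENPF, for example, differed by -2.29 (-2.58 to -2.0) in SKBR-3 and, in BT474m1, by 0.94 (0.70 to 1.17), and PLK1 by -1.84 (-2.44 to -1.24) and 1.16 (0.74 to 1.58). In BT474m1 the largest difference was that of PTTG1, 1.80 (1.26 to 2.35). MAD2L1 (-0.12, interval -0.44 to 0.19) and BUB1B (-0.21, interval -0.68 to 0.26) were among the 14 whose interval spanned 0. The lapatinib library of BT474m1 held few reads of many members, with 26 of KIF14 and 17 of SPC25, so small changes could not be resolved there at this depth.

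**Figure D4:**
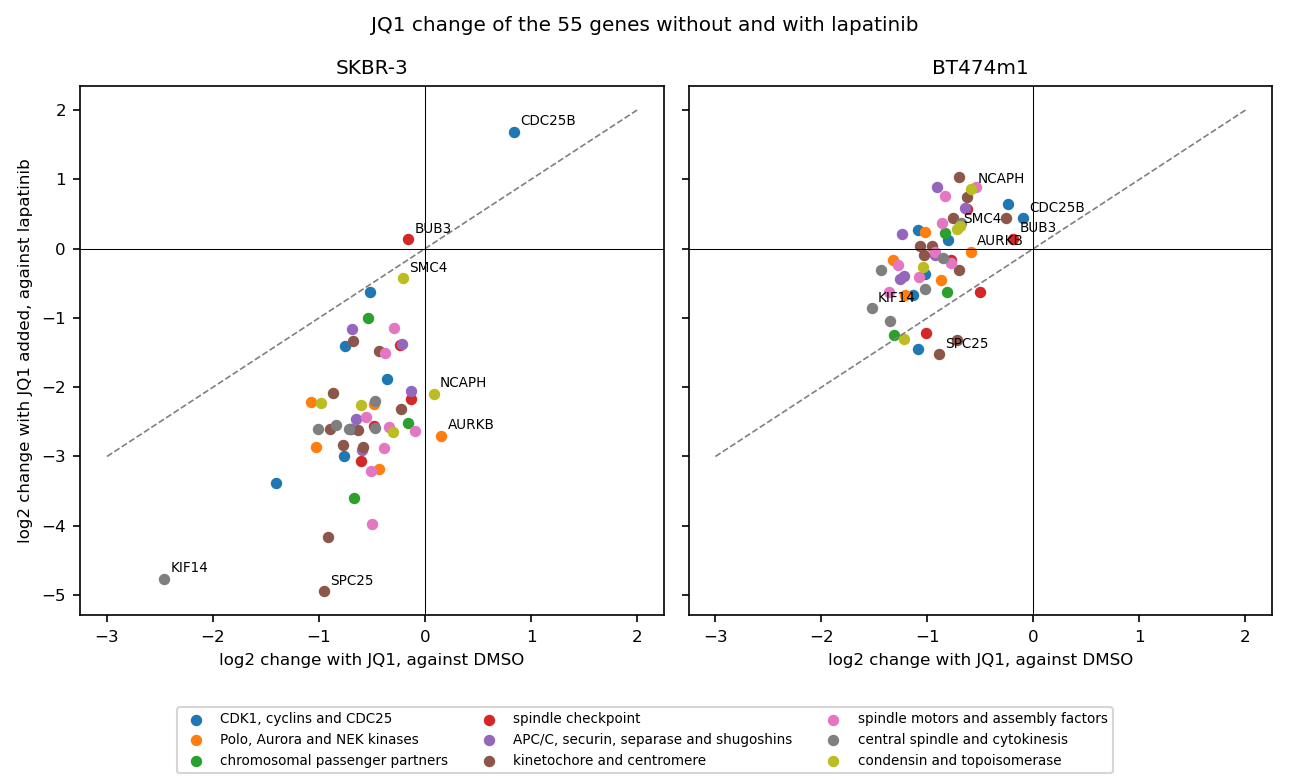
Change of the 55 genes with JQ1 against DMSO (x axis) and with JQ1 added to lapatinib against lapatinib alone (y axis), log2 scale, SKBR-3 left and BT474m1 right; points are genes coloured by role and the dashed line marks equal change. In SKBR-3 the points lie below the line, down to -4.95 for SPC25, except CDC25B and BUB3, and in BT474m1 most lie above it, around 0 on the y axis.

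Set against DMSO, both drugs together left 53 of 55 genes at least 2-fold lower in SKBR-3 (20.8% of all genes) and 54 of 55 in BT474m1 (15.3% of all genes), and 0 higher in either (10.8% and 14.2%). The member medians were -5.99 (-5.33 with a pseudocount of 10) and -4.51 beside all-gene medians of -0.08 and 0.00. In SKBR-3, 5 members were at or below the floor of 3 reads, namely SPC24, SPC25, NDC80, CDC25C and KIF14, and in BT474m1 none was. BIRC5, with 13 reads left, changed most in BT474m1, by -6.63 (-7.72 to -6.03). CDC25B was 0.56 (0.52 to 0.61) in SKBR-3 and -1.68 (-1.75 to -1.61) in BT474m1, and BUB3 was -0.68 (-0.76 to -0.60) and -0.33 (-0.40 to -0.26), the last of which became 0.10 when scaled to housekeeping genes. Adding lapatinib to JQ1 likewise left 53 of 55 genes at least 2-fold lower in SKBR-3 (12.3% of all genes) and 54 in BT474m1 (7.27% of all genes), and 0 higher (9.79% and 12.4% of all genes), with medians of -5.41 and -3.55.

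With DMSO alone the lines differed less. Taking BT474m1 against SKBR-3, 5 of the 55 genes were at least 2-fold lower (15.6% of all genes) and 1 higher (26.8% of all genes), with a median of -0.36 beside 0.21 over all genes. TOP2A stood in SKBR-3 at 24959 under DMSO, 2174 under lapatinib, 20268 under JQ1 and 347 under the combination, and in BT474m1 at 5974, 405, 2897 and 338. TOP2A, given in full after its values were seen, differed most between the untreated lines, by -2.06 (-2.09 to -2.03). SPC24 (-1.25, interval -1.61 to -0.93), ESPL1 (-1.09, interval -1.19 to -1.0), KIF23 (-1.07, interval -1.15 to -0.99) and KIF2C (-1.01, interval -1.10 to -0.93) were the others past 2-fold, and NDC80 was higher in BT474m1 by 1.17 (1.05 to 1.29). The number of lower genes was 9 with median-of-ratios scaling (18.3% of all genes) and 18 with housekeeping scaling (23.3% of all genes), so that its order against all genes turned with the scaling, and with the latter NDC80 no longer passed 2-fold. Whether both lines were handled together is not given in the labels, and line and handling cannot be told apart.

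Other genes of the same processes, taken from lists written for this purpose, showed how far the pattern ran. All 30 DNA replication genes were at least 2-fold lower with lapatinib in SKBR-3 (9.44% of all genes) and in BT474m1 (8.06% of all genes). Their medians were -2.53 and -2.84 where the mitotic genes had -3.51 and -4.54. MCM10 was at 955 with DMSO and 44.4 with lapatinib in SKBR-3 and at 840.2 and 10.2 in BT474m1. RRM2 was at 7440.2 with DMSO and 397 with lapatinib in SKBR-3 and at 4393 and 31.3 in BT474m1. MCM10, a replication initiation factor, changed by -4.40 and -6.23 and RRM2, a subunit of ribonucleotide reductase, by -4.22 and -7.09, where the largest changes among the mitotic genes were -4.27 for SPC24 in SKBR-3 and -5.56 for NCAPH in BT474m1. MCM4, a helicase subunit, changed least of the list by the smaller of its 2 changes, -1.18 and -1.53. On adding JQ1 to lapatinib, 12 of 30 replication genes were at least 2-fold lower in SKBR-3 (16.2% of all genes), and 1 lower (12.5% of all genes) and 3 higher (5.2% of all genes) in BT474m1, with medians of -0.88 and -0.06. The 24 spindle and cytokinesis genes described next counted 13 lower and 0 higher in SKBR-3 and 0 lower and 1 higher in BT474m1, with medians of -1.30 and -0.09, and the 34 kinetochore and centromere genes 8 lower and 0 higher and 0 lower and 2 higher, with medians of -0.55 and 0.05.

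Of all genes, 9.44% were at least 2-fold lower and 11.1% higher with lapatinib in SKBR-3, and 8.06% lower and 14% higher in BT474m1. Of 24 further spindle and cytokinesis genes, 19 were lower and 1 higher with lapatinib in SKBR-3 and 17 lower and 0 higher in BT474m1, with medians of -3.05 and -3.84. KIF18B, a depolymerising motor, and SPAG5 (astrin), a spindle protein, changed by -3.94 and -3.87 in SKBR-3 and -4.52 and -4.59 in BT474m1, while TACC1 and CLASP2, which also act in cells between divisions, were at 0.25 and 0.12 and at 0.00 and 0.13. Of 34 further kinetochore and centromere genes, 20 and 21 were lower and 0 higher. SKA3, part of the SKA complex that tracks microtubules, and HJURP, the chaperone of CENPA, had the largest changes of this list in SKBR-3, -4.00 and -3.86, and were at -5.10 and -4.62 in BT474m1, where CASC5 (KNL1), a scaffold of the kinetochore, had the largest, -5.44. MIS12 and CENPC1, which link the centromere to the outer kinetochore, stood at 0.02 and -0.05 and at 0.11 and 0.27. All 4 remaining condensin subunits were lower, with medians of -2.0 and -2.17.

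Machinery that cells keep outside mitosis had medians nearer to 0, beside 9.44% of all genes lower in SKBR-3 and 8.06% in BT474m1. Of the 15 genes of the APC/C core and its partners, 2 were lower in each line, close to those shares, with medians of -0.43 and -0.21. They were UBE2S, its chain-extending enzyme (-2.55 and -2.86), and the inhibitor FBXO5 (EMI1, -2.23 and -2.96). Cohesin counted 2 of 11 in each line, CDCA5 (sororin) at -3.81 and -4.80 and SMC1A at -1.17 and -1.27, with medians of -0.23 and -0.35. Among 17 genes of mitotic entry brakes, phosphatase control and exit, 5 were lower in each line and 1, NEK9, was higher in SKBR-3 (1.22), with medians of -0.25 and -0.31. The lower ones were led by the kinases PBK, PKMYT1 and MELK at -4.08, -3.64 and -3.52 in SKBR-3 and -5.44, -4.49 and -4.44 in BT474m1. WEE1, the other kinase that inhibits CDK1, stood at -0.08 and -0.28. Of 23 housekeeping genes, 3 were lower in SKBR-3 and 1 lower and 1 higher in BT474m1, with medians of -0.32 and -0.10. The tubulin gene TUBB, at -2.47 and -2.69, was the largest of these.

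**Figure D5:**
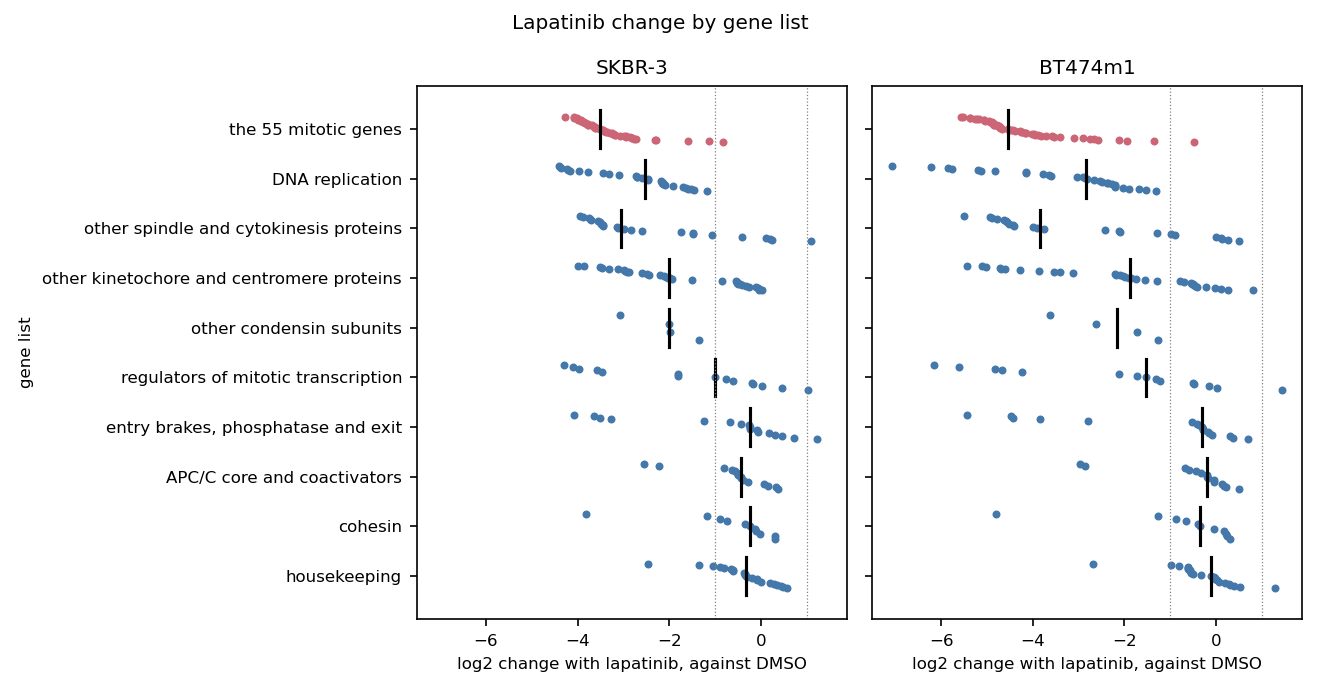
Change with lapatinib against DMSO, log2 scale, of the 55 mitotic genes (red) and of 9 related gene lists (blue) in SKBR-3 (left) and BT474m1 (right); each point is 1 gene, the black bar is the list's median and dotted lines mark 2-fold. The mitotic genes, with medians of -3.51 and -4.54, lie furthest to the left by median, and the APC/C core, cohesin and housekeeping lists lie near 0.

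The regulators known to act on mitotic promoters were split. Of 15, 8 were lower (9.44% of all genes) and 1 higher (11.1% of all genes) with lapatinib in SKBR-3, and 10 lower (8.06% of all genes) and 1 higher (14% of all genes) in BT474m1. MYBL2 was at 5467 with DMSO and 276 with lapatinib in SKBR-3 and at 1669 and 22.3 in BT474m1. B-MYB, its product, is the activator that joins MuvB in S phase. E2F7 and E2F8, atypical repressors of the cycle, changed by -4.10 and -3.98 in SKBR-3 and -5.60 and -4.24 in BT474m1. Of the MuvB subunits, LIN9 changed by -1.81 and -1.73 and LIN52 by -1.01 and -1.30. LIN54 stood at -0.61 in SKBR-3 and changed by -1.23 in BT474m1, while LIN37 was at 0.02 and -0.15 and RBBP4 at -0.18 and -0.51. E2F4, a repressor partner in DREAM, was at -0.76 and 0.02. On adding JQ1 to lapatinib, MYBL2 changed by -3.82 in SKBR-3 and, in BT474m1, by -0.29. The gene that rose at least 2-fold in both lines was RBL2 (p130), the pocket protein of DREAM in resting cells, named after its values were seen, with 1.03 and 1.45. FOXM1, the forkhead activator of mitotic genes, likewise named after its values were seen, was at -3.59 and -4.67 with lapatinib and at -1.28 and -1.51 with JQ1, and changed by -3.85 and -0.85 when JQ1 was added to lapatinib.

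Some members share sequence or position with other genes. CCNA2, CDC25C, PLK1, SPC25, CENPM, KIF15, KIF20A, ANLN and NCAPG overlap another listed gene in the RefSeq annotation, and it is uncertain whether the reads were counted by strand, since the labels name a stranded kit in one place and another kit elsewhere. Their values may hold reads of the neighbour, which was not tested by gene. Without these 9 and PTTG1 the median lapatinib change of the 45 others was -3.44 in SKBR-3 and -4.44 in BT474m1, and on adding JQ1 to lapatinib it was -2.46 and -0.10.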

How the data were processed

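RNA of 8 cultures was measured, 1 library per group, and groups were taken from the labels. The deposited signal per gene is the count estimated by RSEM, which the authors scaled to an upper quartile of 1000. The submitters' processing notes name hg19, RSEM, Picard 1.88, SAMtools 1.2 and R 3.2.2 without roles, whereas the study's methods text names another build and other tools and a shorter drug treatment, although the study elsewhere gives the labelled 48 h for the RNA reads of SKBR-3. The labels were followed, and gene positions other than promoter windows are not given.

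The value of 1 read was recovered as the common step of each table, and 83.8% to 85.2% of the values above 0 were then whole within 0.02 reads. Genes that reached a value of 10 in any library were kept (14429, with 6102 removed). Changes are differences of log2(value + 1), which understates the change of low genes, and a change of 2-fold or more was called. No test was run, since each group held 1 library; a fit of line and drug terms over all 8 libraries, which would take their interactions as error, was not among those planned. Exact Clopper-Pearson 95% intervals were computed from the recovered reads, and those for differences of changes from Poisson variances. Genes were found by symbol (249 of 254 list symbols) or Entrez identifier (5). The scripts ran in Python 3.11.15 with scipy 1.17.1, pandas 2.3.3, matplotlib 3.10.9 and numpy 2.4.6.

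The members, lists and comparisons were chosen with earlier results of these data known. Per-library values were printed for the members of each role with the largest and smallest lapatinib change in either line, those moving opposite ways in the lines when JQ1 was added to lapatinib, and those at the floor of 3 reads, and of the other lists at most the 3 largest and 3 smallest changes were named. Exceptions to this rule were RBL2, FOXM1, CASC5 and NEK9, named after their values were seen, and the regulators LIN9, LIN52 and LIN54. The alternatives were a pseudocount of 10, median-of-ratios, equal-total and housekeeping scaling, no filter or a filter of 100, the mean of the members and intervals in place of the 2-fold call. Leaving out the members that share reads with another gene, and the alternatives for the difference of the lapatinib and JQ1 changes between lines, were chosen after seeing the data. Data were simulated for lapatinib against DMSO in SKBR-3, with 12468 genes and reads drawn from the Poisson model that the intervals assume. All 200 changed genes were called, as were 42 of 12268 unchanged genes, and 94.7% of intervals held the true change. The changes were planted, and the intervals checked, only in genes with many reads. Intervals on few reads were thus not checked, and neither was the spread between cultures.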

Additional observations from a re-analysis of the deposited data

Results flagged for a closer look

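In 12 cases a member moved opposite ways in the lines with both counting intervals clear of 0; beyond those intervals the difference was not tested. They were 2 of 55 members with JQ1 against DMSO (8.91% of all genes), 1 with both drugs against DMSO (14% of all genes) and 9 on adding JQ1 to lapatinib (11.3% of all genes). Values are log2 changes with 95% counting intervals, and differences are BT474m1 minus SKBR-3.

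With JQ1 against DMSO, CDC25B was at 0.84 (0.80 to 0.89) in SKBR-3 and -0.10 (-0.14 to -0.05) in BT474m1, a difference of -0.94, although the BT474m1 value became 0.07 under housekeeping scaling. AURKB was at 0.15 (0.00 to 0.31) and -0.59 (-0.74 to -0.45), a difference of -0.75, but with equal totals its SKBR-3 value was 0.01 (-0.14 to 0.16) and spanned 0. The other 10 cases kept opposite directions and clear intervals under the 3 other scalings. With both drugs against DMSO, CDC25B was at 0.56 (0.52 to 0.61) and -1.68 (-1.75 to -1.61), a difference of -2.24.

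The other 9 cases arose when JQ1 was added to lapatinib. The kinase CDK1 was at -1.88 (-2.15 to -1.63) in SKBR-3 and 0.65 (0.39 to 0.91) in BT474m1, a difference of 2.53. The checkpoint kinase BUB1 was at -2.17 (-2.72 to -1.73) and 0.57 (0.21 to 0.94), which differ by 2.74. Securin (PTTG1) was at -1.16 (-1.84 to -0.58) and 0.89 (0.37 to 1.48), which differ by 2.06, and the shugoshin SGOL2 at -1.37 (-1.85 to -0.95) and 0.58 (0.24 to 0.94), which differ by 1.95.

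Among spindle genes, KIF15 was at -2.63 (-4.02 to -1.79) and 0.88 (0.22 to 1.67), a difference of 3.52, and KIF18A at -1.51 (-2.09 to -1.02) and 0.75 (0.04 to 1.58), a difference of 2.27. ASPM showed the largest of the 12 differences, 3.58, from -3.21 (-3.59 to -2.89) and 0.37 (0.17 to 0.58). The condensin genes NCAPH and SMC4 were at -2.09 (-2.85 to -1.51) and -0.43 (-0.53 to -0.33) in SKBR-3 and at 0.85 (0.32 to 1.46) and 0.28 (0.19 to 0.38) in BT474m1, with differences of 2.95 and 0.71.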

How the results depend on the processing

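Of 356 summary values recomputed under the alternatives, 329 stayed within a tolerance, which was 1.5 times the count for counts and, for medians, the median over members of the margin of the counting interval to either side. The remaining 27 moved. A reversal of direction was looked for only in medians of at least 2-fold, and 0 reversed. Of 2420 member values, 26 changed sign, and all of those were small.

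For JQ1 against DMSO in SKBR-3 (5 members lower, 0 higher, median -0.54), median-of-ratios scaling gave 2 lower (10.6% of all genes), equal totals 10 lower with a median of -0.68, and housekeeping scaling 2 lower, 1 higher and a median of -0.37. In BT474m1, housekeeping scaling gave 12 lower (23 before) and a median of -0.73. Housekeeping scaling also gave medians of -4.15 for lapatinib and -4.09 for both drugs against DMSO in BT474m1, where it shifted the median of all genes by 0.38 and 0.42. For the lapatinib change in BT474m1 minus SKBR-3 (24 members lower, 0 higher, median -0.88), housekeeping scaling gave 9 lower, 1 higher and a median of -0.42, and equal totals 1 higher (13.3% of all genes); for the JQ1 change equal totals gave 1 higher (0 before, 10.2% of all genes). These alternatives were chosen after seeing the data. Between the lines with DMSO, median-of-ratios scaling gave 9 lower and a median of -0.51, and housekeeping scaling 18 lower, 0 higher and a median of -0.74, with all genes shifted by -0.37. A pseudocount of 10, which weighs low values less, gave medians in SKBR-3 of -5.33 for both drugs against DMSO, -1.91 against lapatinib, -4.74 against JQ1 and -1.28 for the JQ1 change with minus without lapatinib, and of -4.17 for lapatinib in BT474m1. The 1 member higher in BT474m1 on adding JQ1 to lapatinib became 0 with that pseudocount and 0 where the interval had to exclude no change.

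Each drug comparison was made within 1 line and rests on 1 pair of libraries. The comparison of the lines with DMSO also rests on 1 pair, and each difference of changes rests on 4 libraries. Leaving out a library would leave a group empty. Pooling lines and JQ1 states would give 4 pairs with and without lapatinib; that paired fit was possible and was not run. The spread between cultures was not measured. At this depth small changes of members with few reads with lapatinib, such as SPC24, were not detectable.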
